A study of Arabidopsis thaliana with 109 samples.

Results

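The comparison set seedlings of the Arabidopsis genotype pif457 against wild type (Col-0) after 30 min in light with a low ratio of red to far-red (low R:FR), the light that reaches a plant under a canopy. It rests on 4 RNA-seq libraries, 2 of pif457 and 2 of wild type, out of 8 libraries in the same table and 109 samples in the whole series. The other 4 libraries of the table are pif457 and wild type in white light, again 2 each, and they share the estimate of spread here. The members were taken by genotype and light label alone. All seedlings were grown in light on Linsmaier and Skoog medium, and total RNA was taken with an RNeasy kit; seedling age and the number of pooled plants are not given in the sources used here. Nothing in the labels says whether the replicates of a group were grown apart, so a p-value here speaks of the spread between 2 libraries, which may be technical. The values are TPM, the share of all transcripts in a library corrected for gene length and scaled to a fixed total, and sequencing depth is unknown because TPM does not keep it.

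PHYTOCHROME INTERACTING FACTORs (PIFs) are basic helix-loop-helix transcription factors that the red-light receptor phytochrome B holds in check in sunlight. When the red to far-red ratio drops, phytochrome B is inactivated, PIF7 together with PIF4 and PIF5 gains activity at G-box promoter elements, and seedlings make more auxin and lengthen their stems. The pif457 line is a triple mutant of PIF4, PIF5 and PIF7. YUCCA genes encode the flavin monooxygenases that complete auxin synthesis, and genes such as ATHB2, HFR1 and PIL1 are the classic early transcripts of the response.

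The mutant transcripts were measured first, as a check of the labels. PIF7 stood at 0.350 and 1.47 TPM in pif457, against 21.6 and 23.4 TPM in wild type. PIF5 stood at 1.60 and 2.45 TPM in pif457, against 19.2 and 21.3 TPM in wild type. PIF4 stood at 3.12 and 6.36 TPM in pif457, against 13.7 and 14.8 TPM in wild type. In each of the 3 genes both mutant libraries lay below both wild-type libraries, an order shared by 31.3% of all genes tested. For PIF7 the same held in white light, at 1.24 and 0.840 TPM in pif457 and 28.0 and 25.5 TPM in wild type. Of the PIFs that are intact in the line, PIF1 averaged 15.3 ± 5.4 TPM in pif457 and 17.9 ± 1.05 TPM in wild type, and PIF3 averaged 7.83 ± 3.98 TPM in pif457 and 7.42 ± 0.0354 TPM in wild type (SD, n = 2 each). Neither PIF1 (limma adjusted p = 0.626) nor PIF3 (adjusted p = 1.00) passed the test, which does not show that they were level: the log2 change of PIF1 was 0.09 without the first pif457 library and -0.60 without the second, and that of PIF3 was 0.47 and -0.48.

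The libraries differed in composition, and 1 stood apart. Nuclear rRNA and organellar transcripts together took 23.1% and 5.78% of all TPM in the pif457 libraries at 30 min, against 4.13% and 12.0% in the wild-type libraries and 4.09% to 11.5% in the 4 white-light libraries. The first pif457 library at 30 min was therefore the one with the least nuclear mRNA, at 76.9% of its TPM, and its median log2(TPM + 1) over 14441 genes averaging at least 5 TPM was 3.92, against 4.26 to 4.42 in the other libraries. TPM has a fixed total, so a larger share for one class leaves less for the rest. The median log2 change over all 24384 genes tested, pif457 minus wild type, was -0.16, -0.08 once rRNA and organellar genes were taken out and the rest rescaled, and 0.05 once each library was centred on its median. Changes below are those of the deposited TPM and are to be read against that -0.16. Root transcripts also differed. The summed level of 30 root marker genes was 781 and 1199 TPM in pif457, against 1712 and 1477 TPM in wild type, and most of that sum was PYK10, a beta-glucosidase of root endoplasmic-reticulum bodies. Without PYK10 the other 29 markers summed to 60.6 and 111 TPM in pif457, against 328 and 261 TPM in wild type. In white light they summed to 109 and 142 TPM in pif457 and 171 and 134 TPM in wild type. The shaded wild type thus stood above all other libraries, and the first shaded pif457 library below them, while the second was level with the lower white-light pif457 library. Taking out rRNA and organellar genes left the order as it was, with 78.9 and 118 in pif457 against 342 and 297 in wild type, on the rescaled values. In seedlings fewer root cells and less RNA per root cell cannot be told apart.

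**Figure D1:**
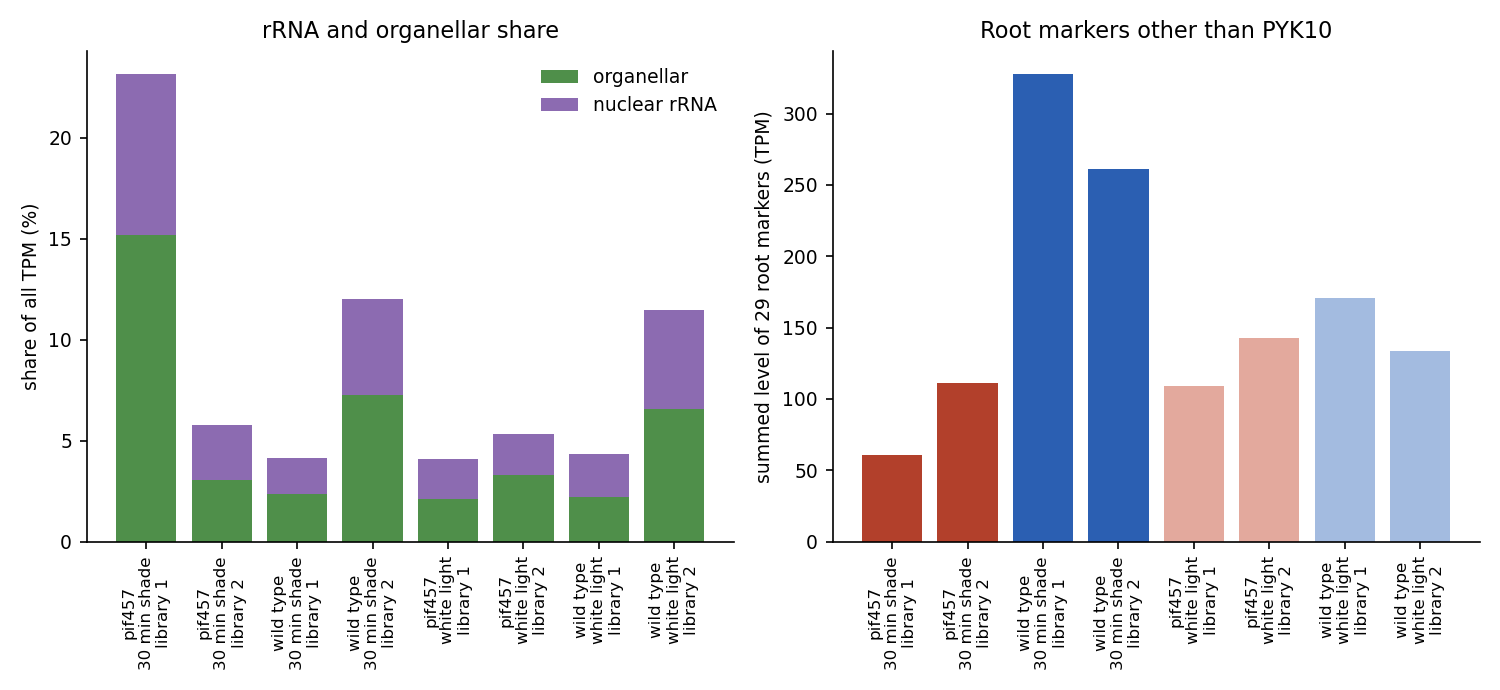
Composition of the 8 libraries. Left, the share of all TPM (%) from organellar genes and nuclear rRNA, stacked per library; right, the summed TPM of 29 root markers other than PYK10, with libraries at 30 min of low R:FR ("shade") in strong colours and white light in pale ones. The first pif457 library at 30 min holds 23.1% rRNA and organellar transcripts, and both pif457 libraries at 30 min hold fewer root transcripts (60.6 and 111 TPM) than both wild-type ones (328 and 261 TPM).

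Under 30 min of shade, 1229 genes were lower in pif457 than in wild type and 51 were higher, at an adjusted p under 0.05 (limma, 24384 genes), which is 5.04% and 0.209% of the genes tested. The lowered genes included the auxin-synthesis genes YUC9, YUC5 and YUC8, the homeodomain genes ATHB4 and ATHB2, and 19 of 30 root markers; the raised genes included MRD1, the iron superoxide dismutase FSD1 and the metal transporter YSL2. The split between directions followed the scaling: 1934 genes were lower (7.99%) and 433 higher (1.79%) without rRNA and organellar genes, and 1381 were lower (5.66%) and 951 higher (3.9%) after median centring. Over the 18772 genes with a mean of at least 1 TPM, 1554 were lower (8.28%) and 178 higher (0.948%). It also rested on single libraries. Without the first pif457 library 16 genes were lower (0.0656%) and 26 higher (0.107%), and without the second 7682 were lower and 141 higher. Leaving out the first wild-type library left 36 lower and 2 higher, and leaving out the second left 239 lower and 7 higher. The median log2 change of all genes tested was 0.01 without the first pif457 library and -0.35 without the second. Counts of list members given below without a library are to be read against these counts and medians of all genes. Without the second pif457 library lowered genes were common among all genes tested, so a list count from that fit says little alone. With the summed root markers as a covariate 3 genes were lower (YUC9, ATHB4 and QQS) and 1 was higher (FSD1). A fit of the 4 libraries at 30 min alone, with their own estimate of spread, called 0 genes, with 3041 at an unadjusted p under 0.05, of which 2710 were lower. Both pif457 libraries lay below both wild-type libraries for 31.3% of the genes tested and above both for 6.02%, so the order of the libraries alone says little about a single gene.

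**Figure D2:**
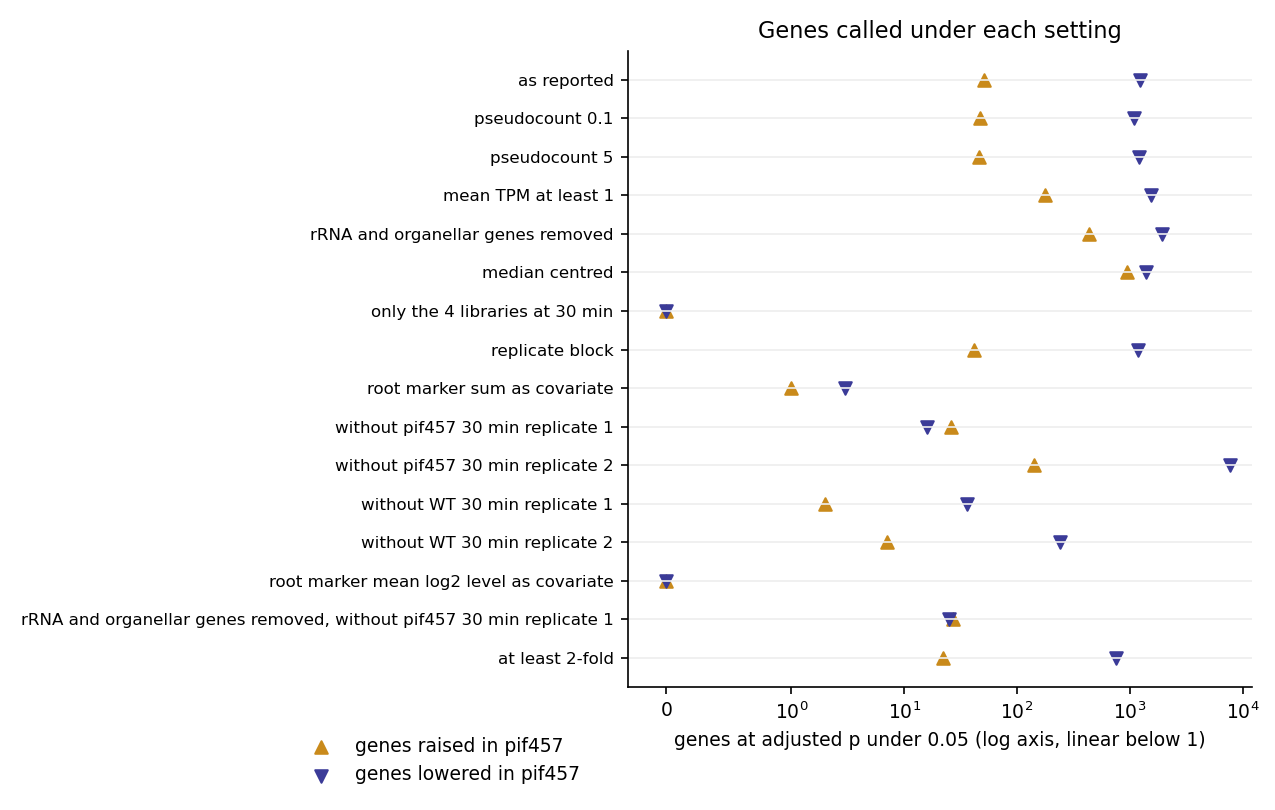
Number of genes called higher (triangles up) or lower (triangles down) in pif457 than in wild type at 30 min of low R:FR, on a log axis that is linear below 1, under each way of processing the values. The count of lowered genes runs from 0 to 7682 and that of raised genes from 0 to 951, against 1229 and 51 as reported.

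Auxin synthesis held the called gene with the largest fall. YUC9 was 0.240 and 0 TPM in pif457, against 17.8 and 15.9 TPM in wild type (log2 change -4.00, SE 0.19, adjusted p = 0.000528). YUC5 was 0.140 and 0.200 TPM in pif457, against 7.73 and 9.02 TPM in wild type (log2 change -3.00, SE 0.16, adjusted p = 0.000958). YUC8 was 0.430 and 0.600 TPM in pif457, against 5.68 and 5.99 TPM in wild type (log2 change -2.18, SE 0.20, adjusted p = 0.00553). All 3 were near zero in both mutant libraries and at several TPM in both wild-type libraries, with no overlap. In white light YUC9 and YUC5 were at or below 0.880 TPM in all 4 libraries of either genotype, and YUC8 was 0.260 and 0.380 TPM in pif457, against 1.14 and 2.13 TPM in wild type. YUC2 and YUC3 were also lower, YUC2 averaging 2.83 ± 0.679 TPM in pif457 and 10.5 ± 0.552 TPM in wild type (SD, n = 2 each), and YUC3 at or under 1.35 TPM in every library at 30 min. Of 11 auxin-synthesis genes tested, 5 fell, 0 rose and 6 did not pass, with a median log2 change of -0.81, where 5.04% of all genes fell and the median of all was -0.16. Those that did not pass included TAA1, which makes the precursor that YUCCA enzymes use: 9.61 and 11.1 TPM in pif457, against 22.1 and 16.0 TPM in wild type (adjusted p = 0.0688). YUC9 and YUC5 kept an adjusted p under 0.05 without any 1 of the 4 libraries, at most 0.0164 for YUC9 and 0.0292 for YUC5. YUC8 lost the call without the first pif457 library (adjusted p = 0.0856) and without the first wild-type library (adjusted p = 0.0831). Leaving out the first pif457 library, or the first wild-type library, left 2 of the 11 lower, leaving out the second wild-type library 3, and leaving out the second pif457 library 6. The root marker sums given above split by genotype, as YUC9, YUC5 and YUC8 did, while the rRNA and organellar shares overlapped between the genotypes. Both pif457 libraries lay below both wild-type libraries for 31.3% of all genes tested. Root share and genotype cannot be told apart here, and the cause of these falls was not tested. With the root marker sum in the fit YUC9 alone of the 11 was called. The median log2 change of the 11 was -0.47 there, against 0.18 for all genes tested.

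The binding data of the series, PIF7 chromatin immunoprecipitation at 30 min of low R:FR against white light, place events beside these genes. They come from a pif457 line that carries PIF7 with a MYC tag, not from wild type, as does the second list below. An event is a binding position called by the authors, and it was assigned to the nearest protein-coding gene within 3 kb (positions in TAIR10, gene neighbours from the TAIR10.1 gene table). At YUC9 the stronger of 2 events lay at chromosome 1 position 1103361, with a fold enrichment of 10.7. At YUC5 it lay at chromosome 5 position 17651774 (fold 5.7), at YUC8 at chromosome 4 position 14192083 (fold 9.5), and at ATHB4 at chromosome 2 position 18521580 (fold 7.5). The same 4 sites were called again, within 100 bases, in a second deposited list of PIF7 binding, described as low R:FR against white light at the time labelled ZT4 (the sample numbers in its description place 1 low R:FR sample on the white-light side). There the authors' caller gave the bases it matched at each site. They are shown as examples of lowered genes with a G-box word at an event of both lists, as HAT1, BIM1, PRE1, AUX1, PIF6 and ST2A also had; capitals mark the palindromic G-box bound by PIFs, each sequence is on the plus strand as the list gives it, and each includes CACGTG.
YUC9: cCACGTGgaga
YUC5: atcCACGTGgttg
YUC8: tctcCACGTGgctt
ATHB4: gttCACGTGggaagt
Of all 1408 events at 30 min, 69.9% carried a matched word with CACGTG, so most PIF7 events held it. Other lowered genes differed in this: the event at ATHB2 had a fold of 2.8 and no match in the second list, and the strongest event at FLP1, a lowered flowering regulator, held CGTGGG and not CACGTG. Promoter sequence was not analysed here.

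The shade-induced regulators, a list drawn up with earlier results of these data known, had the highest share of lowered members among the signalling lists. Of 14 tested, 9 were lower in pif457, 0 were higher and 5 did not pass, and the median log2 change was -1.31, against 5.04% lowered and a median of -0.16 over all genes. ATHB4, a homeodomain-leucine zipper factor, was 3.89 and 6.22 TPM in pif457, against 87.1 and 77.2 TPM in wild type (log2 change -3.80, SE 0.23, adjusted p = 0.00112). ATHB2, its relative and a growth promoter in shade, was 18.5 and 17.35 TPM in pif457, against 149 and 133 TPM in wild type (log2 change -2.91, SE 0.19, adjusted p = 0.00156). In white light ATHB2 was 3.69 and 4.33 TPM in pif457 and 5.41 and 7.65 TPM in wild type, so the mutant at 30 min of low R:FR lay above all 4 white-light libraries and far below the shaded wild type. ATHB4 in pif457 stood at 5.02 and 5.72 TPM in white light, between its values at 30 min. HFR1, an atypical HLH protein that restrains PIFs, was 4.08 and 4.97 TPM in pif457, against 23.2 and 20.5 TPM in wild type (log2 change -2.05, adjusted p = 0.00705). PIL1, another early shade transcript, was 0.510 and 1.21 TPM in pif457, against 5.34 and 4.89 TPM in wild type (log2 change -1.74, adjusted p = 0.0106). HAT1, HAT2 and HAT3, further homeodomain-leucine zipper genes of the same class, fell by 1.29, 1.65 and 1.17 on the log2 scale. BIM1, a brassinosteroid-response bHLH gene, was 20.6 and 33.4 TPM in pif457, against 70.1 and 66.1 TPM in wild type, and PAR1, an HLH inhibitor of shade growth, was 3.07 and 3.33 TPM, against 16.8 and 11.2 TPM. PHYB averaged 23.8 ± 10.1 TPM in pif457 and 42.2 ± 0.0495 TPM in wild type (SD, n = 2 each, adjusted p = 0.113). Of the list, ATHB4 alone kept its call without each of the 4 libraries in turn (adjusted p at most 0.0477), and ATHB2 lost it only without the first wild-type library (adjusted p = 0.0533). Of the 14, 2 fell without the first pif457 library, without the first wild-type library 1, without the second wild-type library 4, and without the second pif457 library 11, with CKX5 and PHYB added. Root marker sums split by genotype here too, in the values given above, while the rRNA and organellar shares overlapped. The cause of these falls was likewise not tested. ATHB4 and YUC9 were called lower at a limma adjusted p of 0.0469 each with the root marker sum in the fit. ATHB2, HFR1 and PIL1 were not called there. The median log2 change of the 14 was -1.02 in that fit, against 0.18 for all genes tested. A lost call there does not show that a gene was level.

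**Figure D3:**
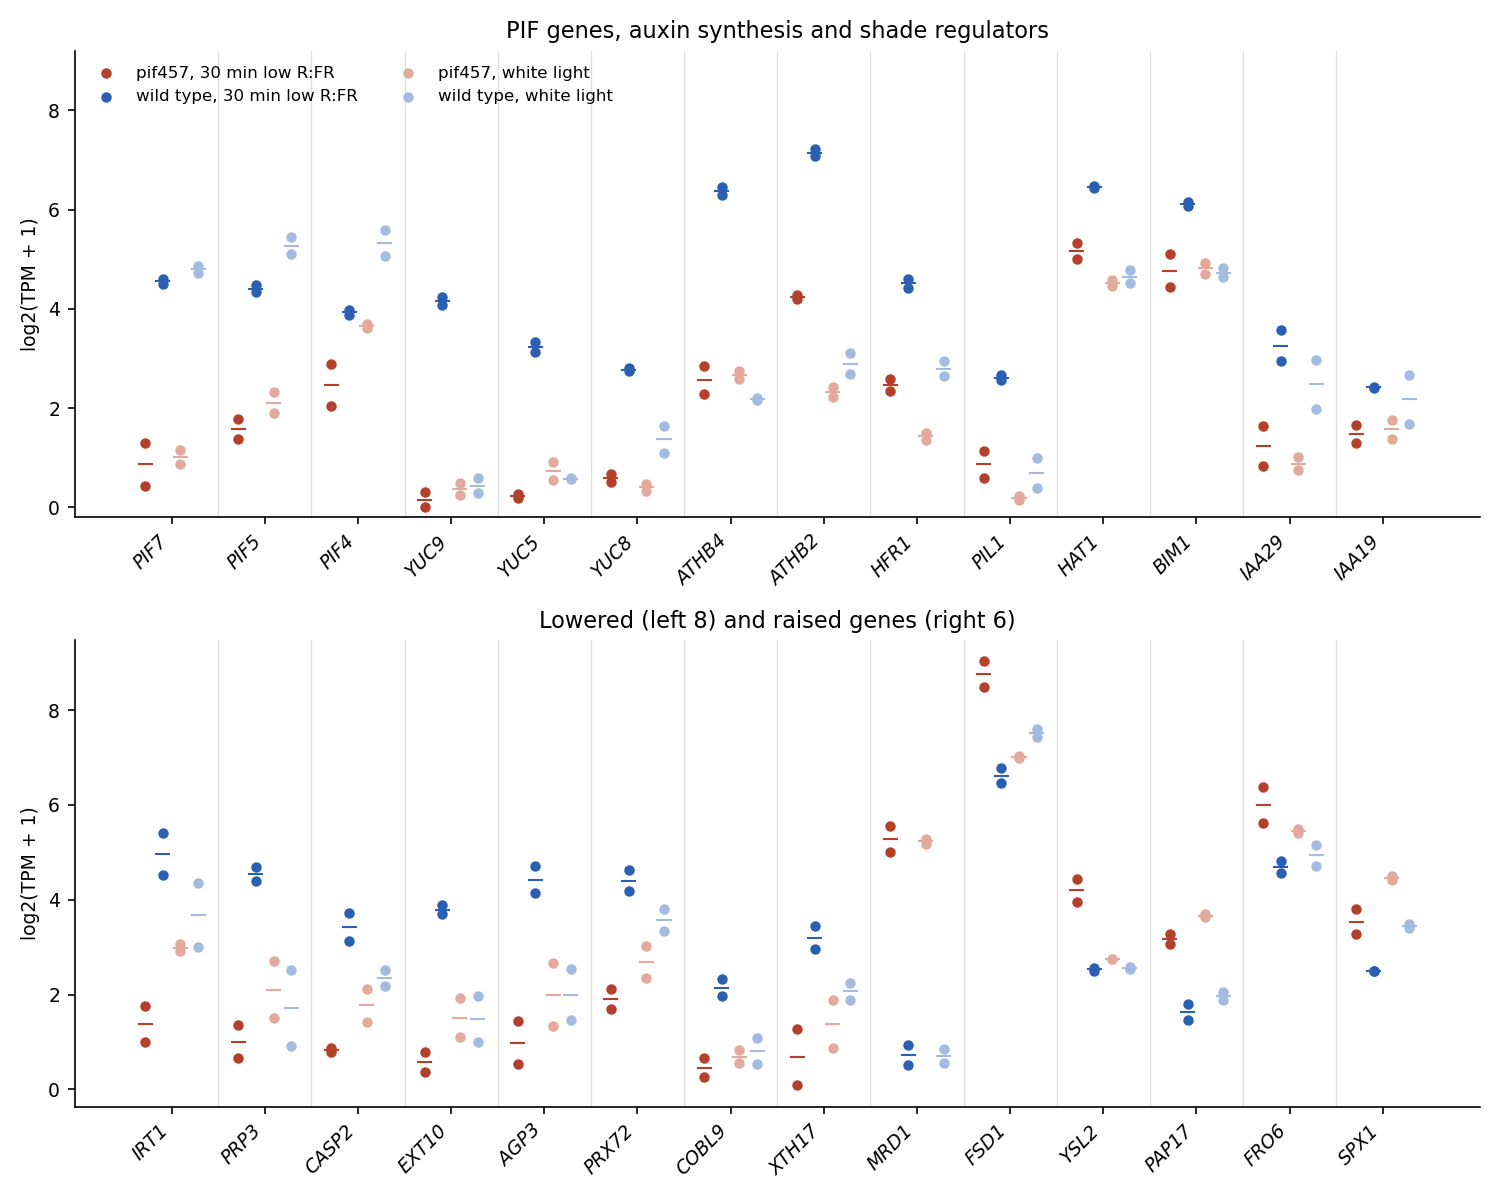
Level of 28 genes, log2(TPM + 1), in each library; points are single libraries and short bars are group means (n = 2), with colours as in the legend. In the upper panel the shaded wild type stands above the other 3 groups for YUC9, YUC5, ATHB4 and ATHB2, while PIF7 and PIF5 are low in both pif457 groups; in the lower panel root-wall genes such as PRP3 and EXT10 are highest in the shaded wild type, MRD1 is high in both pif457 groups and FSD1 is highest in shaded pif457.

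The other auxin, growth and hormone lists had fewer called members, several of them at a share near the 5.04% lowered over all genes, and their counts turned on the first pif457 library. Of 28 Aux/IAA genes, which encode repressors of auxin signalling that auxin itself induces, 2 were lower and 26 did not pass: IAA29 was 0.770 and 2.11 TPM in pif457, against 10.9 and 6.68 TPM in wild type, and IAA2 was 30.8 and 46.7 TPM, against 85.3 and 78.2 TPM. IAA19, a frequent marker of shade growth, was 1.45 and 2.16 TPM in pif457, against 4.38 and 4.32 TPM in wild type, without passing (adjusted p = 0.170). Among 17 auxin transport genes 3 fell, namely the influx carrier AUX1 (32.3 and 52.2 TPM in pif457, against 90.8 and 80.9 TPM in wild type) and the root-expressed carriers PIN2 and ABCB4. PIN2 was 0.990 and 2.59 TPM in pif457, against 12.5 and 8.10 TPM in wild type. Among 12 growth-regulating HLH genes 3 fell: PRE1, a growth promoter, at 3.51 and 4.11 TPM in pif457, against 12.0 and 14.0 TPM in wild type, together with PRE3 and PAR1. Of 26 small auxin-up RNA (SAUR) genes SAUR19 and SAUR9 fell, of 7 auxin-inactivation genes 0 did, and of 18 gibberellin genes only the DELLA gene RGL3 did. Among brassinosteroid genes BIM1 was the 1 of 19 that fell, and the synthesis gene DWF4 was 10.9 and 19.5 TPM in pif457, against 31.7 and 29.9 TPM in wild type (adjusted p = 0.0582). Of the ethylene-synthesis genes 3 fell among 19 ethylene genes, ACS5, ACS8 and ACO1 (AT2G19590), ACS5 and ACS8 at or under 1.49 TPM in every library at 30 min. CKX4 and ARR3 fell among 19 cytokinin genes. No member of these 9 lists rose, though 1 Aux/IAA and 1 SAUR gene did after median centring. Without the first pif457 library no member of them passed in either direction. With that library alone for pif457, the second being left out, members of all 9 lists were lower, as were many of all genes tested. In that fit the median of all genes tested was -0.35, and the medians of these lists lay between -0.50 and -0.76. With all libraries kept the list medians lay between -0.27 and -0.48, against -0.16 for all genes tested.

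**Figure D4:**
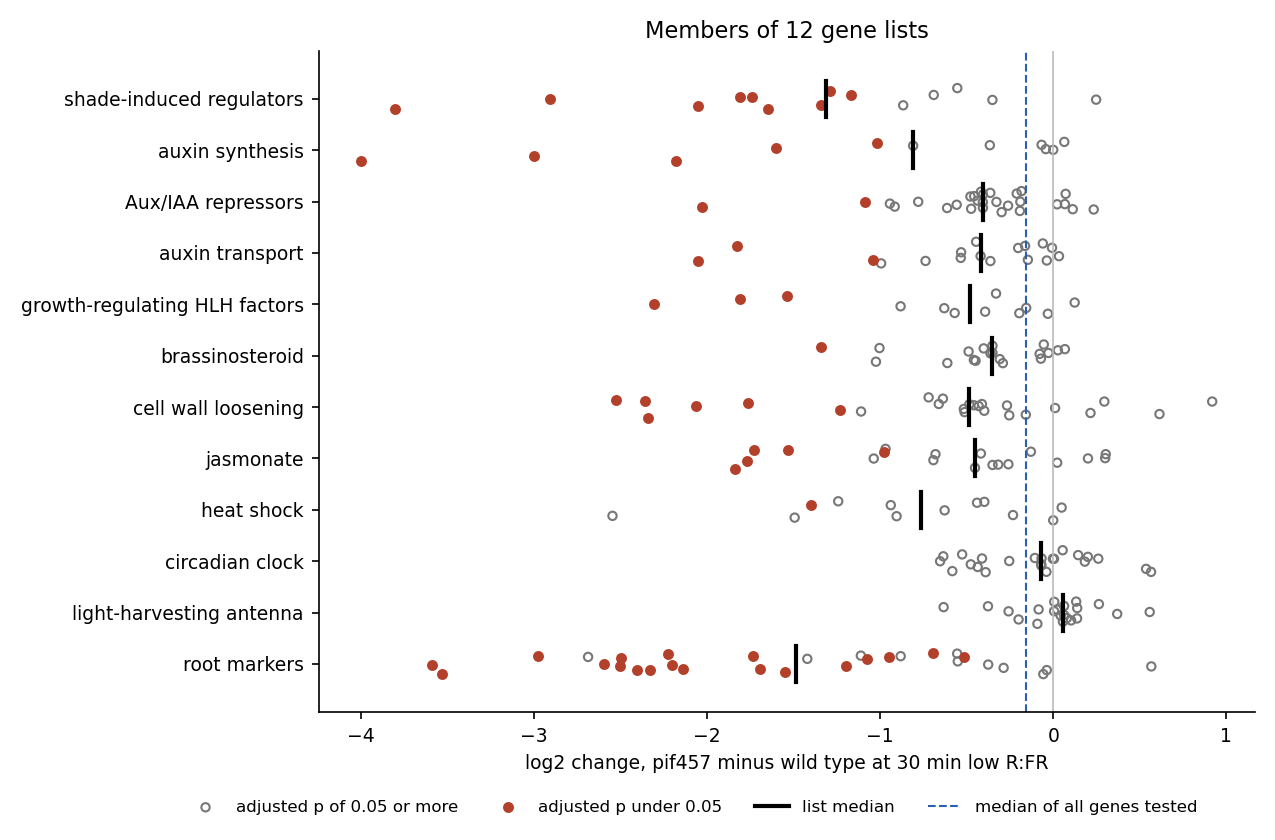
Log2 change, pif457 minus wild type at 30 min of low R:FR, of each tested member of 12 gene lists (filled, adjusted p under 0.05; open, 0.05 or more), with the list median as a black bar and the median of all 24384 genes, -0.16, as a dashed line. The medians of the shade-induced regulators (-1.31), auxin synthesis (-0.81) and root markers (-1.48) stand furthest left, followed by heat shock (-0.77), and those of the light-harvesting antenna (0.06) and clock genes (-0.07) lie right of the dashed line.

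Root markers were the list with the lowest median. Among the 15 called genes with the largest falls and a mean of at least 5 TPM, IRT1 and PRP3 are root markers, and HRGP1, AGP3, AGP4, EXT10, EXT13 and EXT6 carry the names of extensins and arabinogalactan proteins. Of 30 root markers tested, 19 were lower in pif457, 0 were higher and 11 did not pass, against 5.04% of all genes lowered; the median log2 change was -1.48, and 27 of 30 had both pif457 libraries below both wild-type libraries, as 31.3% of all genes did. NRT2.1 was listed at 0 in both pif457 libraries, and no marker was at 0 in the wild-type libraries. IRT1, the iron transporter of the root epidermis, was 0.990 and 2.38 TPM in pif457, against 41.4 and 21.9 TPM in wild type (log2 change -3.59, SE 0.49, adjusted p = 0.0106). PRP3, a cell wall protein of root hairs, was 0.580 and 1.56 TPM in pif457, against 24.7 and 20.0 TPM in wild type (log2 change -3.53, SE 0.57, adjusted p = 0.0158). CASP2, which helps lay down the Casparian strip of the endodermis, was 0.720 and 0.840 TPM in pif457, against 12.2 and 7.78 TPM in wild type (log2 change -2.59, SE 0.31, adjusted p = 0.00789). The NADPH oxidase gene RHD2, the wall protein gene LRX1 and the root hair regulators RHD6 and RSL4 fell as well. Of the markers that did not pass, the endodermis regulator SCR overlapped between the genotypes, at 20.0 and 31.2 TPM in pif457 and 25.9 and 25.6 TPM in wild type. Among the wall protein genes, EXT10 averaged 0.500 ± 0.311 TPM in pif457 and 12.8 ± 1.28 TPM in wild type, HRGP1 1.19 ± 1.07 TPM in pif457 and 23.1 ± 2.68 TPM in wild type, and AGP3 1.08 ± 0.891 TPM in pif457 and 20.9 ± 5.99 TPM in wild type (SD, n = 2 each). Extensins are a family of near-repeat proteins, so reads may be shared between them and single values are uncertain. In white light the genotypes overlapped for PRP3, at 1.84 and 5.49 TPM in pif457 and 4.76 and 0.880 TPM in wild type. Without the first pif457 library, or without the first wild-type library, 0 of the 30 markers passed; without the second wild-type library 1 did, and without the second pif457 library 23 did.

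Cell wall loosening genes were mixed. Of 25 genes for expansins and xyloglucan endotransglucosylases (XTH), enzymes and proteins that let walls extend, 6 fell, 0 rose and 19 did not pass, with a median of -0.48, against 5.04% lowered and a median of -0.16 over all genes. XTH17 was 0.0600 and 1.4 TPM in pif457, against 9.91 and 6.74 TPM in wild type, and its relatives XTH18 and XTH19 fell by 2.34 and 2.35 on the log2 scale. XTH15, named among shade-response genes, was 2.78 and 3.99 TPM in pif457, against 14.0 and 13.5 TPM in wild type (adjusted p = 0.0289). The abundant EXPA1 and XTH4 did not pass, EXPA1 at 269 and 392 TPM in pif457, against 423 and 472 TPM in wild type. The root marker sums given above moved with these genes, and the cause of the falls was not tested. With the root marker sum in the fit 0 of the 25 were called. Their median log2 change was -0.29 there, against 0.18 for all genes tested. Of the 25, 0 passed without the first pif457 library or without either wild-type library, and 11 were lower without the second pif457 library.

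Of the remaining lists, read against the 5.04% lowered over all genes, jasmonate had 5 lowered genes of 19, among them the synthesis genes LOX2 (17.7 and 21.6 TPM in pif457, against 81.1 and 55.3 TPM in wild type) and AOC3, the sulfotransferase genes ST2A and ST2B, and the repressor gene JAZ1. Without the second pif457 library 10 of the 19 were lower, and without any 1 of the other 3 libraries at 30 min 0 were. Phytochromes and PIFs had 4 lowered of 13, the 3 mutated genes and PIF6, with PIF6 at 1.04 and 1.64 TPM in pif457, against 3.51 and 3.75 TPM in wild type. One gene fell in each of 4 lists: the chaperone gene HSP70 among 12 heat-shock genes, MYB12 among 12 flavonoid genes, LAF1 among 24 photomorphogenesis regulators and FLP1 among 11 flowering regulators. FLP1 was 0.620 and 0.580 TPM in pif457, against 11.4 and 9.2 TPM in wild type (adjusted p = 0.00789). Among these PIF, heat-shock, flavonoid, photomorphogenesis and flowering genes, only PIF7 kept its call without the first pif457 library. PIF7 lost its call without the first wild-type library. The summed level of the heat-shock genes was 45.6 and 57.8 TPM in pif457, against 102 and 118 TPM in wild type. No member passed in either direction among 23 clock genes, 21 antenna genes, 16 chlorophyll-synthesis genes, 10 photosensory genes, 20 touch and rapid stress genes, 12 cold-regulated genes, 13 nitrate genes, 19 carbon-starvation genes, 15 senescence genes and 11 genes of histone H2A.Z and its remodellers. These zeros also turned on 1 library. Without the second pif457 library members of each of these lists but the antenna were lower, as were many of all genes tested. In that fit the median of all genes tested was -0.35, and the medians of these lists lay between -0.51 and -0.11. After median centring 3 clock genes, 1 antenna gene, 2 photosensory, 1 cold-regulated and 2 carbon-starvation genes passed as raised. As lowered, 1 clock, 1 touch, 1 cold-regulated and 2 nitrate genes passed there. As reported, no member passed among the markers of seed and embryo, phloem companion cells and dividing cells, whose sums overlapped between genotypes: seed markers were 69.1 and 57.8 TPM in pif457, against 62.5 and 46.6 TPM in wild type, companion cell markers 275 and 401 TPM in pif457, against 302 and 288 TPM in wild type, and dividing cell markers 339 and 427 TPM in pif457, against 397 and 370 TPM in wild type. The guard cell list moved both ways, and neither of its calls held without the first pif457 library. Its sum was 1703 and 2094 TPM in pif457, against 1431 and 1289 TPM in wild type, carried by the myrosinase TGG1, and TGG2 rose while the potassium channel gene KAT1 fell to 5.34 and 8.31 TPM in pif457, against 19.7 and 19.3 TPM in wild type.

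On the deposited TPM few genes were higher in pif457, 51 or 0.209% of those tested. That count followed the scaling, with 433 without rRNA and organellar genes and 951 after median centring. MRD1, named for its response in a methionine-accumulating mutant, was 31.0 and 46.0 TPM in pif457, against 0.420 and 0.900 TPM in wild type (log2 change 4.56, SE 0.27, adjusted p = 0.00112). Its white-light values were the same in kind, 37.8 and 35.4 TPM in pif457, against 0.810 and 0.480 TPM in wild type. FSD1, the iron superoxide dismutase of chloroplasts, was 358 and 521 TPM in pif457, against 108 and 87.1 TPM in wild type (log2 change 2.14, SE 0.19, adjusted p = 0.00553); in white light it was 130 and 126 TPM in pif457, against 194 and 173 TPM in wild type, without passing the test (adjusted p = 1.00). YSL2, a transporter of metal complexes, was 14.5 and 20.8 TPM in pif457, against 4.91 and 4.66 TPM in wild type (log2 change 1.67, adjusted p = 0.0106), and FRO6, a ferric reductase gene of leaves, was 48.3 and 82.1 TPM, against 22.8 and 27.4 TPM (adjusted p = 0.0295). PAP17 and SPX1, both known as phosphate-starvation transcripts, were raised as well, PAP17 at 7.40 and 8.64 TPM in pif457, against 2.49 and 1.76 TPM in wild type. For PAP17 and SPX1 the white-light libraries held the same order, with 11.9 and 11.4 TPM of PAP17 in pif457 and 2.70 and 3.14 TPM in wild type. MRD1 kept its call without any 1 of the 4 libraries (adjusted p at most 0.0295), and FSD1 lost it only without the first wild-type library (adjusted p = 0.0782). YSL2 lost its call without either wild-type library (0.146 without the first), PAP17 and FRO6 lost theirs without the first pif457 library (0.0856 and 0.0867) as well, and SPX1 lost its call without either wild-type library (0.267 without the first).

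A small set of called genes held under every pseudocount, filter, scaling and block setting and without either pif457 library; the set was picked after its values were seen and is given as a description. It counted 13 lowered and 5 raised genes. The lowered ones were PIF7, YUC9, YUC5, ATHB4, ATHB2, AT5G12050, QQS, EXT3, AT3G62040, AT5G52790, NRT1.5, LSU3 and SOT18, and the raised ones MRD1, FSD1, YSL2, AT2G32870 and AT4G08093. Requiring the call without either wild-type library too left YUC9, YUC5, ATHB4 and AT5G52790 lowered and MRD1 raised. QQS, an Arabidopsis gene known for its effect on starch content, was 22.8 and 32.6 TPM in pif457, against 171 and 151 TPM in wild type, and about as far apart in white light, at 25.4 and 28.0 TPM in pif457, against 149 and 152 TPM in wild type.

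White light gave far fewer differences between the genotypes, with 3 genes higher and 4 lower in pif457 (0.0123% and 0.0164% of genes tested), and the median log2 change over all genes was 0.02. The difference between the genotype effect at 30 min of low R:FR and that in white light was tested as an interaction, and 10 genes passed, 8 downward and 2 upward (0.0328% and 0.0082%). The smallest p-values belonged to YUC9 (interaction -3.93, SE 0.26), YUC5 (-3.15, SE 0.23) and ATHB4 (-4.29, SE 0.33), each with an adjusted p of 0.00883. For ATHB2 the interaction was -2.33 with an adjusted p of 0.0528, and for the mutated gene PIF7 it was 0.09 (adjusted p = 0.953). Among the raised genes FSD1 passed (interaction 2.65, adjusted p = 0.0327), while MRD1 had an interaction of 0.04 (adjusted p = 0.978). No root marker passed, with CASP2 at an interaction of -2.02 and an adjusted p of 0.159.

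Beyond these 8 libraries, 2 further tables of the series share none with this comparison. One holds a pif457 line that carries PIF7 under its own promoter with a MYC tag, 30 min of low R:FR against white light, and the other wild type at 2 h of low R:FR against white light, each with 3 libraries a group and each normalized separately. In the PIF7-MYC line YUC9 averaged 4.99 ± 0.335 TPM at 30 min of low R:FR and 0.223 ± 0.123 TPM in white light (SD, n = 3 each), ATHB4 92.8 ± 3.04 TPM at 30 min and 2.94 ± 0.613 TPM in white light, and ATHB2 293 ± 8.83 TPM at 30 min and 5.04 ± 0.549 TPM in white light. Thus each of these genes, low in shaded pif457, rose with shade in the line with tagged PIF7 (limma adjusted p of 1.05e-06, 7.51e-08 and 2.98e-09). Those p-values compare low R:FR with white light within the line, and the line was not tested against pif457. At 2 h in wild type YUC9 (log2 change 3.28, limma adjusted p = 0.00254) and ATHB2 (4.16, 9.03e-06) rose. ATHB4 did not pass there (0.77, 0.383). PIF7 itself averaged 74.3 ± 4.32 TPM at 30 min and 126 ± 8.71 TPM in white light in the line (SD, n = 3 each). In the shaded wild type of the main comparison PIF7 averaged 22.5 ± 1.24 TPM and YUC9 16.8 ± 1.34 TPM (SD, n = 2 each). Of 1229 genes lowered in pif457, 59 (4.80%) rose in the PIF7-MYC line in low R:FR and 9 (0.732%) fell, where 3.80% and 1.03% of all genes did. Of the 934 genes that rose there, 59 (6.32%) were lowered in pif457 at 30 min and 1 was raised, against 5.04% and 0.209% of all genes. Those that also had a PIF7 event stood lower: 39 of 284 (13.7%) were lowered in pif457 and 0 raised, with a median log2 change of -0.38, while 20 of 650 (3.08%) without an event were lowered, with a median of -0.19. At 2 h in wild type 314 genes rose (1.24%) and 186 fell (0.734%). Of those that rose, 58 of 313 tested (18.5%) were lowered in pif457 at 30 min, with a median of -0.48. Without the first pif457 library 4 of the 284 and 3 of the 313 were lowered, with medians of -0.11 and -0.31 against 0.01 for all genes. Root markers did not pass in either table, with 0 of 30 raised and 0 lowered in each. IAA19 had a log2 change of 4.90 at 2 h in wild type (adjusted p = 2.69e-05) and of 0.11 at 30 min in the PIF7-MYC line (adjusted p = 0.833). MRD1 was high in both groups of the PIF7-MYC line, at 37.3 ± 7.06 TPM at 30 min and 34.2 ± 6.10 TPM in white light. It was low in wild type of the other table, at 3.33 ± 2.47 TPM at 2 h and 2.44 ± 1.69 TPM in white light. QQS in that wild type was near its level in pif457 of the main comparison, at 36.0 ± 9.68 TPM at 2 h and 28.5 ± 12.1 TPM in white light. In the PIF7-MYC line QQS averaged 67.8 ± 12.9 TPM at 30 min and 57.9 ± 15.0 TPM in white light (SD, n = 3 each).

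Across all lowered genes PIF7 events were not common. Of 1197 protein-coding genes lowered in pif457, 86 (7.18%) had a 30 min event, against 2 of 39 raised (5.13%) and 1079 of 22816 tested (4.73%). Of the 59 genes that were lowered in pif457 and rose in the PIF7-MYC line, 39 (66.1%) had an event, against 31.0% of all genes that rose in that line; the line is also the one on which the binding was measured. Among the lists, 10 of 14 shade-induced regulators, 7 of 12 growth-regulating HLH genes and 3 of 11 auxin-synthesis genes had an event, and 0 of 30 root markers did. HFR1 and PIL1 had no event assigned by the nearest-gene rule, and for HFR1, PIL1 and IAA29 this says only that no event had them as its nearest gene.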

How the data were processed

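The deposited tables hold TPM per gene model, made by the authors with STAR 2.6.0c and RSEM 1.3.0 on TAIR10, per the submitters' processing notes, which also name Bowtie2 2.1.0; the kit is per the labels' protocols. Of 33602 models, 24384 above 0 somewhere in the 8 libraries were tested on log2(TPM + 1) with limma 3.58.1 (trend; R 4.3.3), all 8 libraries in 1 fit, Benjamini-Hochberg over all genes, called at an adjusted p under 0.05. A log2 change on this scale understates the change of low genes. The deposited lists of PIF7 binding events, called by the authors with GEM on replicates together, per the deposited file descriptions, give a position, a signal strength, a fold ratio and a −log10 q-value per event; those values only rank or describe events. Organellar genes were taken by gene code and rRNA genes from the RefSeq gene table (TAIR10.1), which matched 32835 models. Of 586 list entries in 33 lists, 546 matched, 28 did not and 12 were homonyms or duplicates left out. The genes named are the PIF and classic shade genes, the 15 most raised and 15 most lowered called genes with a mean of at least 5 TPM and no overlap, up to 4 genes a list by smallest p, and up to 6 by smallest interaction p; further list members and the genes that held across settings were chosen after their values were seen. Members and lists were chosen with earlier results of these data known. Alternatives were pseudocounts of 0.1 and 5, a mean of at least 1 TPM, 2 rescalings, the 4 libraries alone, a block, a root covariate and each library left out. The test was checked on simulated data. Promoter sequence was not analysed here. In designs of 2 against 2 an exact permutation test cannot go below 0.333.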

Additional observations from a re-analysis of the deposited data

Results flagged for a closer look

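The genotype effect at 30 min of low R:FR differed from that in white light, by the interaction test across all genes (limma, Benjamini-Hochberg), for 10 genes, each with the adjusted p beside its value. YUC9 (-3.93, adjusted p = 0.00883), YUC5 (-3.15, 0.00883) and ATHB4 (-4.29, 0.00883) were lower in pif457 at 30 min and did not pass the test in white light, with the levels given above. FSD1 (2.65, 0.0327) rose in pif457 at 30 min and had a log2 change of -0.51 in white light that did not pass. AT3G41761 (4.09, 0.0315) was 10.8 and 6.35 TPM in pif457 and 2.57 and 3.08 TPM in wild type at 30 min, but 0 in both pif457 libraries and 5.13 and 6.95 TPM in wild type in white light. MIR848 (-1.03, 0.0319) was listed at 0 in all 4 libraries at 30 min and, in white light, at 1.15 and 0.950 TPM in pif457 and at 0 in both wild-type libraries. The other 4 were low everywhere, at or under 1.65 TPM: AT2G17070 (-1.20, 0.0325), AT1G67760 (-1.16, 0.0325), MYB54 (-1.48, 0.0375) and AT1G71000 (-1.68, 0.0394). With 2 libraries a group no library could be set against a group of 4 or more.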

How the results depend on the processing

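With 51 genes raised and 1229 lowered as reported, the counts moved as follows. A mean of at least 1 TPM gave 178 raised. Removing rRNA and organellar genes gave 433 and 1934, and median centring 951 raised. The 4 libraries alone gave 0 and 0. The summed root markers as a covariate gave 1 and 3, and a change of at least 2-fold left 22 and 757. Leaving out single libraries gave 2 to 141 raised and 16 to 7682 lowered. Chosen after seeing the data, the mean log2 root level as a covariate gave 0 and 0, with 1130 genes at an unadjusted p under 0.05, and removing rRNA and organellar genes without the first pif457 library gave 27 and 25. Since root transcripts at 30 min differed with genotype, genotype and root share cannot be told apart.

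The 10 interaction genes became 5 with a pseudocount of 0.1, 806 at a mean of at least 1 TPM, 197 after centring, 2 with the summed root covariate, 0 with the mean root level, and 5 to 2761 without single libraries. The 7 white-light genes became 12, 232 and 20 with the pseudocount of 0.1, the 1 TPM mean and centring. The 59 genes lowered and raised in the PIF7-MYC line became 127 at a mean of at least 1 TPM, 115 without rRNA and organellar genes, 106 after centring, 0 in the 4 libraries alone, 2 and 0 with the root covariates, 9 without rRNA, organellar genes and the first pif457 library, and 3 to 468 without single libraries. For these changes the cause was not tested.

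With the mean root level as a covariate 13 named genes that were called lower changed sign: HRGP1 to 0.28, PRP3 to 0.17, AGP3 to 0.38, AT3G28550 to 1.23, EXT13 to 0.19, AT3G54580 to 0.59, XTH17 to 0.64, XTH18 to 0.56, PRE3 to 1.21, PIN2 to 0.61, AOC3 to 0.18, ABCB4 to 0.99 and ARR3 to 0.41. In that fit the median log2 change of all genes tested was 0.38. The median SE there was 0.54 over genes averaging at least 5 TPM. PRP3 is itself among the 29 root markers averaged in the covariate. Under the other alternatives no named gene that was called changed sign with that call; genes not called, PIF1 and PIF3 among them, did. Of the named genes, 156 of 164 kept direction and call with a pseudocount of 0.1. That count was 159 with the replicate block, 91 with the summed root covariate and 88 in the 4 libraries alone. Same-numbered libraries correlated at 0.366 (pif457 and wild type in white light) and 0.135 (wild type in both lights), but at -0.0414 between pif457 and wild type at 30 min and at -0.26 to 0.00829 in the other pairs of groups, so the numbers were not taken to pair the libraries. With the replicate number as a block 42 genes were raised and 1170 lowered, and 9 passed the interaction. A planned promoter motif comparison was not run. Depth is unknown, and 2 libraries a group limit the precision.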
